A study of Homo sapiens with 6 samples.

Results

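The 10 genes described here are HIF1A, VHL, EGLN1, EGLN3, CA9, VEGFA, ADM, NDRG1, BNIP3 and ANKRD37, which were chosen by gene symbol for their role in oxygen sensing, out of 56638 symbols in the count tables. All 10 were listed, and 9 had enough reads to be tested; CA9 did not. RNA-seq was performed on DLD-1, an established line of human colorectal cancer cells, with 3 libraries from cells transfected with a control siRNA and 3 from cells given lncSLCC1 siRNA, directed at a long non-coding RNA; the latter are called knockdown libraries here. All 6 libraries came from the same line in the same medium, and the labels name no hypoxia treatment or hypoxia mimic for either group. Whether replicates were separate cultures is not stated in the labels, and p-values here therefore reflect library-to-library spread that may be technical.

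Hypoxia-inducible factor (HIF) is a pair of proteins that switches on genes when oxygen is scarce. Its oxygen-sensitive subunit, encoded by HIF1A or by the related EPAS1, is hydroxylated by the prolyl hydroxylases EGLN1, EGLN2 and EGLN3 while oxygen is present, and the hydroxylated protein is recognised by VHL, the substrate receptor of a ubiquitin ligase, and destroyed. The level of HIF1A is therefore set largely at the protein, which RNA-seq does not measure, whereas transcripts of HIF target genes can be read in these libraries. In colorectal tumours HIF targets include genes of glucose uptake, pH control and blood vessel growth.

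Libraries held 12572277 to 15568075 reads on genes, and values are given as counts-per-million (CPM) with library sizes scaled by TMM, edgeR's normalization. The labels do not tie lncSLCC1 to a symbol in the count tables; RP11-400N13.2, taken here as the targeted RNA from an earlier account of these data, fell to 27.1% of its control mean (log2 fold change -1.88, adjusted p = 0.0027 by edgeR). All 9 epithelial markers examined had reads, at a sum of 5785 to 7208 CPM in control and 5890 to 6218 CPM in knockdown libraries. Their log2 fold changes went both ways, 5 positive and 4 negative, with a median of 0.088. VIL1, a villin gene, was the only 1 of the 9 to pass, with a rise of 0.87 on the log2 scale (edgeR adjusted p = 0.00618). Endothelial markers (3 of 4 with reads) summed to 1.30 to 2.42 CPM in control and 1.56 to 2.23 CPM in knockdown libraries, and PECAM1 had 0 reads throughout. The 4 of 6 fibroblast markers with reads summed to 2.21 to 2.73 CPM in control and 3.05 to 3.27 CPM in knockdown libraries, with DCN and LUM at 0. One of them, PDGFRB, rose from 0.532 ± 0.159 to 1.32 ± 0.393 CPM (SD, n = 3 each), with an edgeR adjusted p of 0.0448 that was lost without control replicate 2 (0.149) or knockdown replicate 1, 2 or 3 (0.0525, 0.175 and 0.158). COL1A1, the other fibroblast marker tested, went the other way, from 1.93 ± 0.379 to 1.70 ± 0.204 CPM (SD, n = 3 each). It did not pass (log2 fold change -0.18, adjusted p = 0.643 by edgeR). The 5 leukocyte markers with reads summed to 1.71 to 1.88 CPM in control and 1.15 to 1.63 CPM in knockdown libraries. The part of such transcripts in the results was not tested. Control replicate 1 stood apart from the other controls in a way that followed base composition. Among genes of at least 10 CPM whose longest transcript has under 40% GC, the median log2 ratio of control replicate 1 to the mean of the other 2 controls was -0.565, whereas it was 0.25 among genes over 60% GC.

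**Figure D1:**
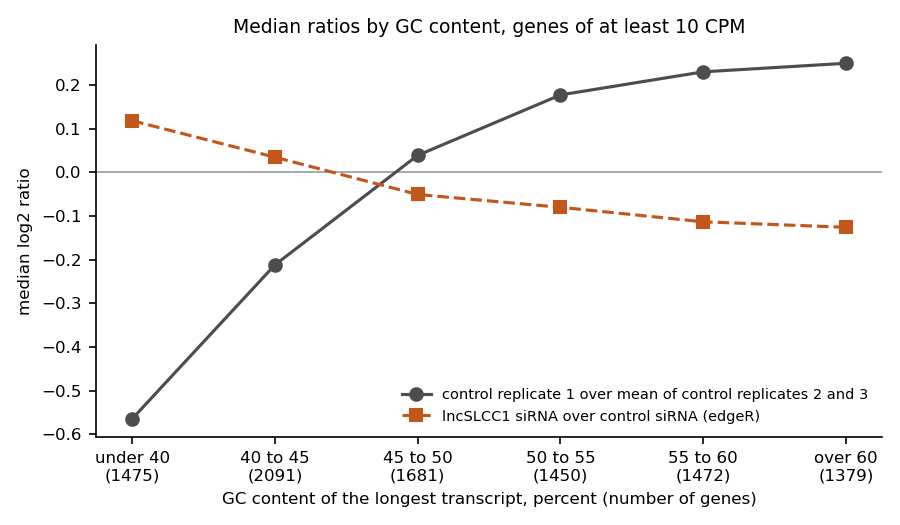
Median log2 ratios (vertical axis) of genes grouped by the GC content of their longest transcript (horizontal axis, number of genes in brackets), for control replicate 1 over the mean of control replicates 2 and 3 (circles) and for lncSLCC1 siRNA over control siRNA (squares). The circles climb from -0.565 in the group under 40% GC to 0.25 in the group over 60%, and the squares run the other way, from 0.118 to -0.126. Control replicate 1 enters both series, over the other controls in the circles and among the controls compared against in the squares. Their opposite trends are therefore not independent.

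HIF binds a short core, ACGTG or GCGTG, known as the hypoxia response element. Stretches of promoter that hold it are printed so that the letters can be read beside the expression values, with the core in capitals as it reads on the strand of the gene (CACGT and CACGC are the cores on the other strand). RefSeq promoters of assembly GRCh38.p14, from 250 bases before to 50 bases after a start site, were searched for 7 of the 10 genes. NDRG1 was left out of the search, and VHL and VEGFA had no usable entry. Only bases before the start site are printed. The coordinates belong to that assembly and not to the build of the count tables.
ANKRD37, chr4:185396669-185396712, plus strand: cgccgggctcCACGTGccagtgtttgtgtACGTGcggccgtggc
BNIP3, chr10:131982013-131982076, minus strand: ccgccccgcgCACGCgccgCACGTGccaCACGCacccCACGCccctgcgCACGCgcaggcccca
CA9, chr9:35673900-35673924, plus strand: gtttccaatgCACGTacagcccgta
ADM, chr11:10304962-10304986, plus strand: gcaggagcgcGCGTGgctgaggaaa
EGLN1, chr1:231422288-231422310, minus strand: gccgtggtgtACGTGcagagcgc
HIF1A, chr14:61695299-61695323, plus strand: gctgagagcgGCGTGggctggggtg

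A core of either kind was found in 6 of the 7 genes with a searched promoter, and none was found in the EGLN3 window or at the alternative start site of HIF1A. The same search, on both strands, found a core in 48.4% of all 35116 promoters in the table (ACGTG in 21.4%, GCGTG in 36.5%), so a match is common and does not by itself mark a binding site. That share is of promoters, of which HIF1A had 2 searched, whereas 6 of 7 is a count of genes. CACGTG, in ANKRD37 and BNIP3, holds ACGTG on both strands and is also the E-box that MYC and related factors bind. ANKRD37, whose product is an ankyrin repeat protein, and BNIP3, whose product drives the removal of mitochondria, hold the most cores of the 7 genes.

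No transcript of the 9 tested genes passed the threshold of a Benjamini-Hochberg adjusted p under 0.05 in edgeR's quasi-likelihood test, 0 higher and 0 lower after knockdown. Among all 15242 genes tested, 13.8% passed, 6.46% higher and 7.39% lower; of these 2110 calls 46.6% were higher, or 63.7% with library totals in place of TMM. At an unadjusted p under 0.05 there were 4 of the 9 (VHL and NDRG1 higher, EGLN3 and VEGFA lower), against 31.6% of all genes. The same 4 genes were those whose groups did not overlap, against 39.0% of all genes. DESeq2 called 1 of the 9, VEGFA, with 2 at an unadjusted p under 0.05, and limma-voom called 0, with 4; these tools called 16.6% and 13.21% of all genes they tested. With edgeR, leaving out control replicate 1 gave 1 higher and 3 lower calls (NDRG1; HIF1A, EGLN3 and VEGFA), where calls over all genes also grew to 29.04%. Leaving out control replicate 3 gave 1 higher and 2 lower (VHL; EGLN3 and VEGFA), with 23.7% of all genes called. Leaving out any other library gave 0 members, with 2.93% to 3.95% of all genes called. The median log2 fold change of the 9 genes was -0.0076, beside 0.0072 for all genes.

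**Figure D2:**
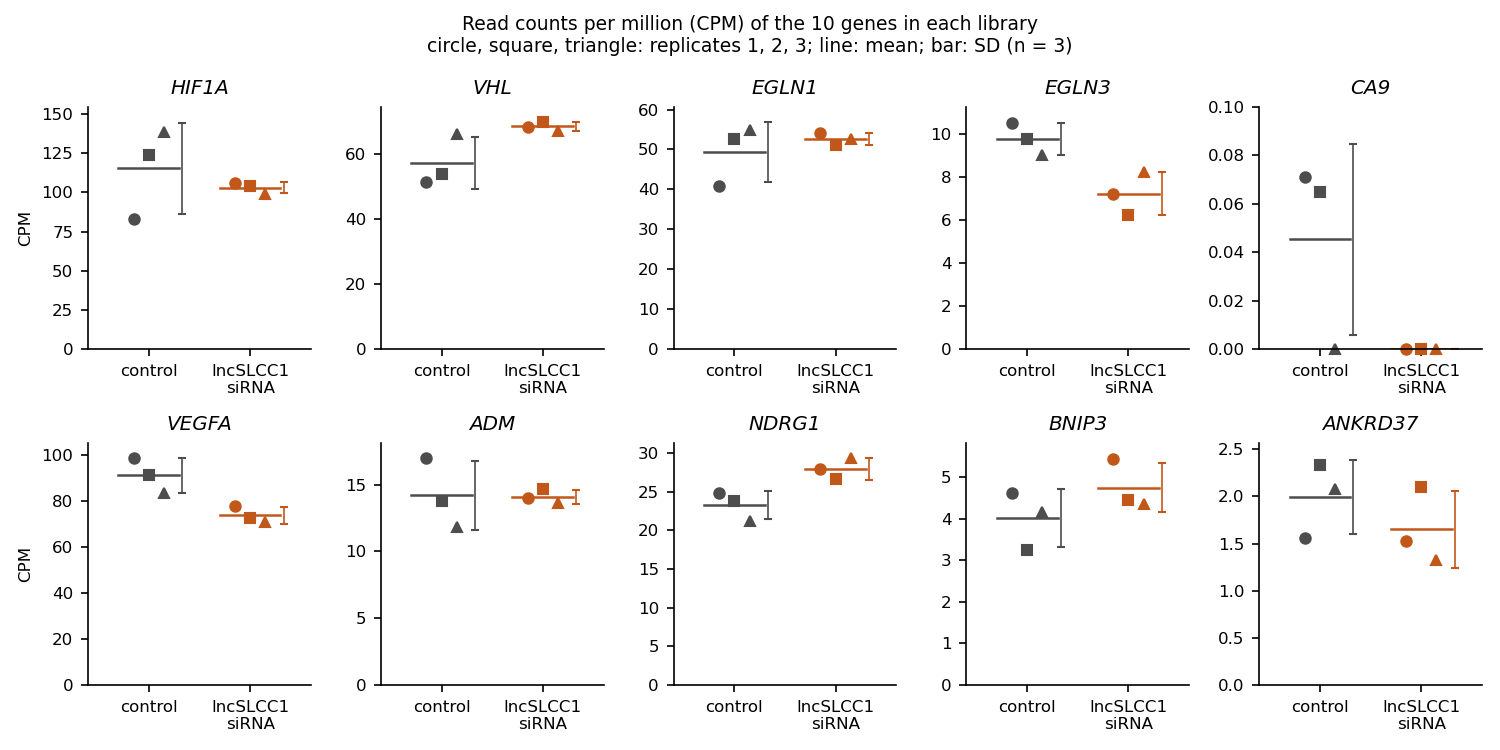
CPM (vertical axis, from 0) of the 10 genes in control siRNA and lncSLCC1 siRNA libraries, with replicates 1, 2 and 3 as circle, square and triangle, the mean as a line and the SD as a bar (n = 3). The groups do not overlap for VHL, EGLN3, VEGFA and NDRG1, and control replicate 1, at 83.0 CPM, is the lowest of the 6 libraries for HIF1A.

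HIF1A, which encodes the oxygen-regulated subunit, had the highest mean level of the 10 transcripts when CPM was divided by the length of the longest transcript. It stood at 83.0, 124 and 139 CPM in the controls, always given in the order of replicates 1, 2 and 3, and at 106, 104 and 98.9 CPM after knockdown. The knockdown libraries were close together and lay inside the range of the controls, whose lowest value was that of replicate 1. Means were 115 ± 28.8 and 103 ± 3.68 CPM (SD, n = 3 each), a log2 fold change of -0.16 (SE 0.158, 95% confidence limits -0.51 and 0.19, adjusted p = 0.517 by edgeR). Without control replicate 1 the difference passed the test, at -0.35 (adjusted p = 0.000186; range over the 14 alternatives 0.000186 to 0.961). With offsets for GC content and transcript length it also passed, at -0.28 (adjusted p = 0.0038), in a fit that called 30.15% of all genes. The longest HIF1A transcript has 36.4% GC, and the log2 ratio of control replicate 1 to the other controls was -0.66 for HIF1A beside the median of -0.565 for all genes under 40% GC; the part of base composition in the HIF1A values was not tested beyond these fits.

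The 6-library profile of HIF1A was compared with those of 9221 other genes of at least 10 CPM by the root mean square difference of centred log2 CPM. The 3 most similar genes were FBXO30, an F-box protein gene, at 0.0248, SLC38A1, a transporter of neutral amino acids, at 0.0314, and ZFR, a zinc-finger RNA-binding protein gene, at 0.0341, where the median gene was at 0.291. FBXO30 stood at 35.8, 51.6 and 60.7 CPM in controls and at 44.6, 45 and 42.6 CPM after knockdown. All 3 genes were picked for likeness to a profile that includes the low value in control replicate 1, so sharing that value follows from the choice. Their log2 ratios of control replicate 1 to the other controls were -0.65, -0.61 and -0.61 in that order.

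The prolyl hydroxylase genes come next. EGLN1, the main HIF prolyl hydroxylase in normal oxygen, stood at 40.7, 52.6 and 54.8 CPM in controls and at 54.2, 51.2 and 52.6 CPM after knockdown. The groups overlapped, and control replicate 1 was again the lowest library (log2 fold change 0.093, SE 0.117, 95% confidence limits -0.17 and 0.35, adjusted p = 0.623 by edgeR; -0.029 without that library). EGLN3, a hydroxylase gene that is itself induced by HIF, stood at 10.5, 9.81 and 9.03 CPM in controls and at 7.23, 6.25 and 8.24 CPM after knockdown. Every knockdown library was below every control, and the mean was 74.0% of the control mean. The log2 fold change was -0.44 (SE 0.144, 95% confidence limits -0.76 and -0.12), which missed the threshold at an adjusted p of 0.0689 by edgeR. It passed under 3 of 14 alternatives, in a range of adjusted p of 0.0379 to 0.267. These were without control replicate 1 (-0.39, adjusted p = 0.0464), without control replicate 3 (-0.498, adjusted p = 0.0424) and with GC content and length offsets (-0.396, adjusted p = 0.0379, 30.15% of all genes called). EGLN2, the remaining member of the family, was at 17.5 ± 1.73 and 15.9 ± 1.19 CPM (SD, n = 3 each) and did not pass (adjusted p = 0.438).

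VHL stood at 51.6, 54.0 and 66.4 CPM in controls and at 68.5, 70.0 and 67.3 CPM after knockdown. The knockdown libraries were all higher, the lowest of them by less than 1 CPM over control replicate 3. Means were 57.3 ± 7.92 and 68.6 ± 1.36 CPM (SD, n = 3 each), a log2 difference of 0.26 (SE 0.106) that did not pass (edgeR adjusted p = 0.129). The difference passed under 2 of 14 alternatives, in a range of adjusted p of 0.0148 to 0.332. These were without control replicate 3 (0.37, adjusted p = 0.0148) and with GC content and length offsets (0.27, adjusted p = 0.0373, 30.15% of all genes called). Among the partners of VHL in the ligase, the elongin genes TCEB1 and TCEB2 were lower in every knockdown library without passing in the main test. Their log2 fold changes were -0.36 (edgeR adjusted p = 0.0529) and -0.43 (edgeR adjusted p = 0.0534). TCEB1 passed under 5 and TCEB2 under 6 of 14 alternatives, DESeq2 among them for both. CUL2, the cullin scaffold, and RBX1, the RING subunit, overlapped between groups.

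VEGFA, which encodes the growth factor that attracts blood vessels, came nearest to the threshold of the 9 genes. It stood at 98.5, 91.2 and 83.3 CPM in controls and at 77.6, 72.7 and 70.5 CPM after knockdown, so that the groups did not overlap. Means were 91.0 ± 7.58 and 73.6 ± 3.65 CPM (SD, n = 3 each), or 80.9% of control. The log2 fold change was -0.31 (SE 0.0909, 95% confidence limits -0.51 and -0.10), which missed the threshold narrowly (adjusted p = 0.0514 by edgeR). It passed under 6 of 14 alternatives, DESeq2 (adjusted p = 0.029) among them, and the sign held under all 14 (adjusted p 0.00532 to 0.2, without control replicate 1 0.00705 and without control replicate 3 0.0156). The coreceptor gene NRP1, at 75.5 ± 8.87 and 91.7 ± 1.89 CPM (SD, n = 3 each), had higher values in every knockdown library and did not pass (log2 fold change 0.28, adjusted p = 0.0823 by edgeR); it passed without control replicate 1 (adjusted p = 0.0249) and without control replicate 3 (adjusted p = 0.0202). The related coreceptor gene NRP2 went the other way, from 16.7 ± 1.21 to 14.4 ± 0.997 CPM (SD, n = 3 each). NRP2 was lower in every knockdown library and did not pass (log2 fold change -0.21, adjusted p = 0.238 by edgeR). The VEGF receptor gene KDR had 0 reads in every library.

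ADM encodes adrenomedullin, a secreted peptide that widens blood vessels. It stood at 17.0, 13.8 and 11.8 CPM in controls and at 14.0, 14.7 and 13.6 CPM after knockdown. The knockdown libraries lay inside the control range, and the means were nearly equal, at 14.2 ± 2.61 and 14.1 ± 0.531 CPM (SD, n = 3 each; log2 fold change -0.0076, 95% confidence limits -0.33 and 0.31, adjusted p = 0.979 by edgeR). The interval still includes changes of about 0.3 on the log2 scale in each direction. Genes of the adrenomedullin receptor, CALCRL, RAMP2 and RAMP3, had means of at most 0.0434 CPM in either group.

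NDRG1, a hypoxia and differentiation-linked gene, stood at 24.8, 23.8 and 21.2 CPM in controls and at 27.9, 26.6 and 29.4 CPM after knockdown. All knockdown libraries exceeded all controls, in the opposite direction to VEGFA. The log2 fold change was 0.26 (SE 0.105, 95% confidence limits 0.030 and 0.50, adjusted p = 0.119 by edgeR). It passed under 3 of 14 alternatives, in a range of adjusted p of 0.0132 to 0.338. These were without control replicate 1 (0.31, adjusted p = 0.0132), with library totals (adjusted p = 0.0484) and with GC content and length offsets (adjusted p = 0.0194, 30.15% of all genes called). Its relatives NDRG2, NDRG3 and NDRG4 did not pass, at log2 fold changes of 0.094, 0.044 and 0.15.

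BNIP3 stood at 4.62, 3.25 and 4.16 CPM in controls and at 5.44, 4.46 and 4.36 CPM after knockdown. The groups overlapped, on 50 to 82 reads per library (log2 difference 0.25 with SE 0.182, edgeR adjusted p = 0.376). BNIP3L, its close relative in the removal of mitochondria, was more abundant, at 39.8 ± 4.63 and 37.6 ± 1.29 CPM (SD, n = 3 each), and did not pass. ANKRD37 stood at 1.56, 2.34 and 2.08 CPM in controls and at 1.53, 2.10 and 1.32 CPM after knockdown, on 17 to 36 reads per library. The groups overlapped, and at that depth the 95% confidence limits of the log2 difference were as wide as -0.84 and 0.31 (adjusted p = 0.519 by edgeR).

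CA9, which encodes a cell-surface carbonic anhydrase and is among the most strongly oxygen-dependent HIF targets, had 1, 1 and 0 reads in the controls and 0 reads in each knockdown library. A count of 0 allows up to 3 reads, or 0.191 to 0.233 CPM in single knockdown libraries, a limit that covers counting error only. The low-count filter left it out of the main test; without the filter the difference did not pass (edgeR adjusted p = 0.53), and so few reads do not resolve a difference. The related CA12 was at 4.23 ± 0.962 and 2.81 ± 0.146 CPM (SD, n = 3 each) and did not pass (adjusted p = 0.0863 by edgeR). CA2, which encodes a cytosolic carbonic anhydrase, fell from 25.4 ± 0.614 to 14.2 ± 1.45 CPM (SD, n = 3 each), at a log2 fold change of -0.84 (SE 0.112, adjusted p = 0.00207 by edgeR), and passed in all 14 alternatives.

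Scaled by transcript length, control levels fell into steps. HIF1A (29.1 ± 7.29 CPM per kb) and VEGFA (25.7 ± 2.15) overlapped across control libraries and stood above VHL (15.3 ± 2.12). ADM, EGLN1, EPAS1, EGLN2 and NDRG1 came next, between 7.51 and 6.198 CPM per kb, each overlapping its neighbour in the order. EGLN3 (3.43 ± 0.262; SD, n = 3 for each of these values), then ANKRD37 and BNIP3, which overlapped each other, and CA9 followed. Levels after knockdown left HIF1A, VEGFA and VHL as the highest 3.

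**Figure D3:**
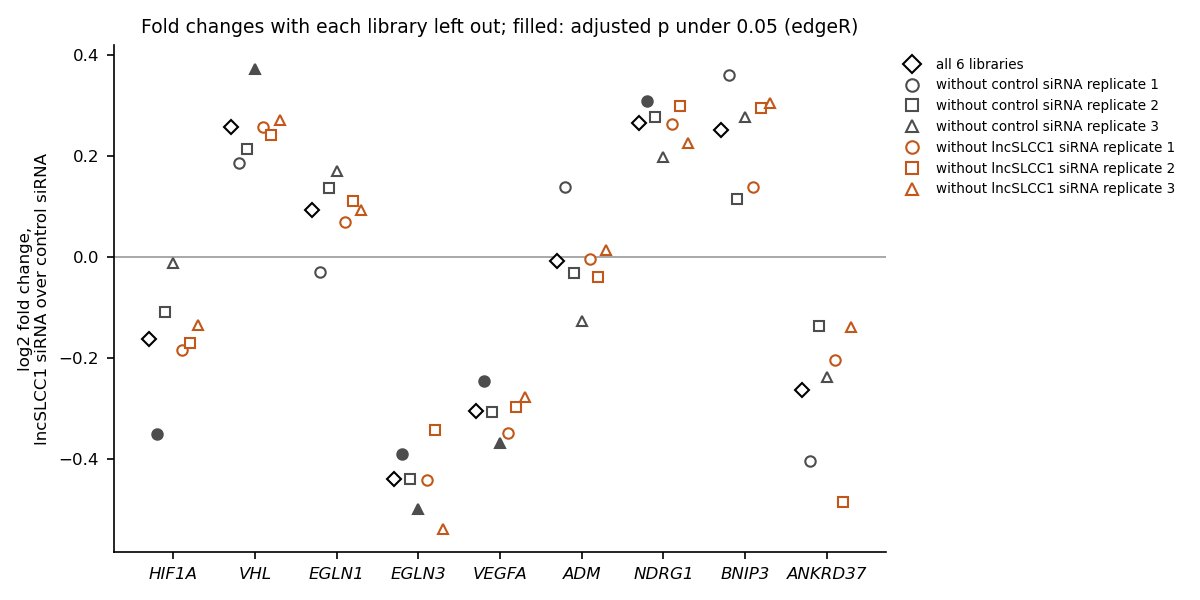
Log2 fold change of lncSLCC1 siRNA over control siRNA (vertical axis) for the 9 tested genes with all 6 libraries (diamonds) and with each library left out (grey, a control; orange, an lncSLCC1 siRNA library; circle, square and triangle for replicates 1, 2 and 3), filled where the adjusted p is under 0.05. Leaving out control replicate 1 moves HIF1A from -0.16 to -0.35 and takes EGLN1 and ADM across 0.

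Among the tested genes for HIF subunits and regulators, the smallest p belonged to one outside the 10 genes, EPAS1, which encodes HIF-2 alpha, the sister subunit of HIF1A. EPAS1 stood at 33.5, 32.0 and 32.3 CPM in controls and at 20.2, 19.8 and 19.7 CPM after knockdown, with both groups tight and far apart; control replicate 1 differed from the other controls by a log2 ratio of 0.059. It fell to 61.1% of control (log2 fold change -0.71, SE 0.0942, 95% confidence limits -0.92 and -0.50, adjusted p = 0.00203 by edgeR) and passed in all 14 alternatives, at -0.73 to -0.64. In bulk RNA, a lower level per cell and fewer cells with the transcript cannot be told apart. Per kb of transcript, the ratio of HIF1A to EPAS1 was 3.24, 5.07 and 5.61 in control libraries and 6.87, 6.86 and 6.57 in knockdown libraries, a ratio chosen after the values were seen.

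Of 21 tested genes for HIF subunits and regulators, HIF1A, VHL, EGLN1 and EGLN3 among them, 3 fell, 0 rose and 18 did not pass (median log2 fold change -0.15, or -0.054 with GC content and length offsets, beside 0.0072 for all genes). These 3 of 21 are close to the 13.8% called among all genes. HIF1AN, which encodes the asparaginyl hydroxylase that blocks coactivator binding, fell from 126 ± 3.78 to 99.97 ± 5.03 CPM (SD, n = 3 each), a log2 change of -0.33 (SE 0.0783) with an edgeR adjusted p of 0.0235. CITED2, which encodes a competitor of HIF for the coactivators EP300 and CREBBP, fell from 152 ± 10.1 to 123 ± 7.18 CPM (SD, n = 3 each), a log2 change of -0.30 (SE 0.0844) with an edgeR adjusted p of 0.0425. Both calls were lost when control replicate 2 was left out (adjusted p = 0.072 for HIF1AN and 0.152 for CITED2), and likewise with knockdown replicate 1 (0.136 and 0.1001), 2 (0.104 and 0.184) or 3 (0.0978 and 0.184) left out. CITED2 was also lost with library totals (adjusted p = 0.0783) and with the replicate number as a block (adjusted p = 0.0541). ARNT, the constant partner of HIF1A and EPAS1, was at 37.7 ± 4.99 and 48.3 ± 2.85 CPM (SD, n = 3 each), higher in every knockdown library. It did not pass in the main test (log2 fold change 0.36, adjusted p = 0.0615 by edgeR) and passed under 5 of 14 alternatives. EP300 and CREBBP overlapped between groups. Over the list, lower calls numbered 8 without control replicate 1, 7 without control replicate 3 and 1, EPAS1, without any other library, while the share of all genes called moved in the same order (29.04%, 23.7% and at most 3.95%).

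**Figure D4:**
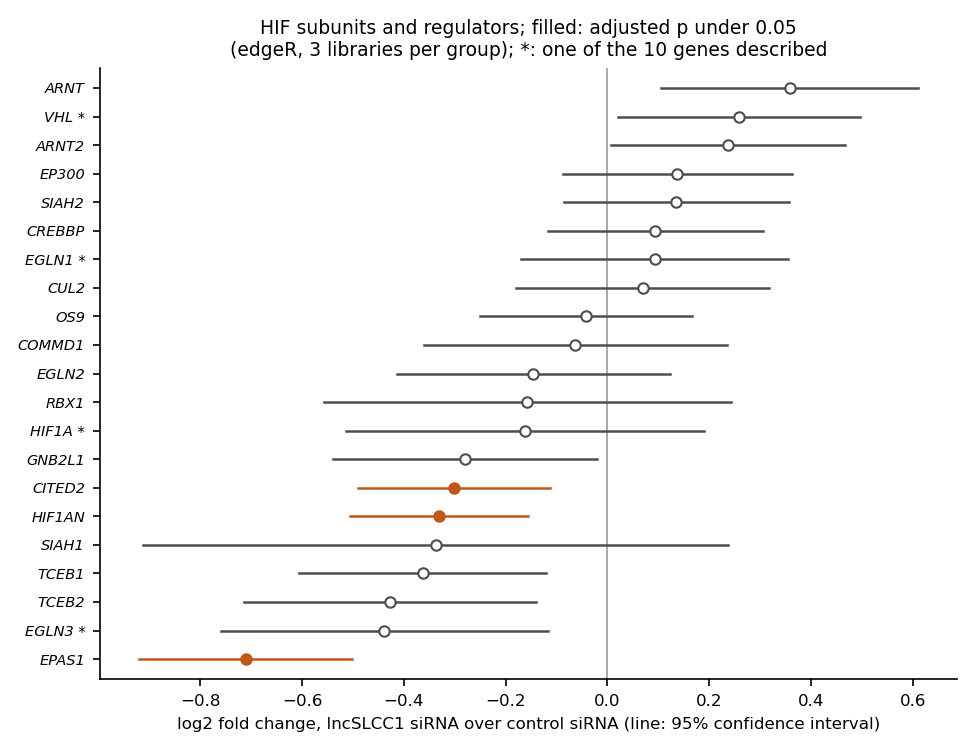
Log2 fold changes with 95% confidence intervals (horizontal axis) of the 21 tested genes for HIF subunits and regulators, filled where the adjusted p is under 0.05. EPAS1, at -0.71, lies apart from the rest, with HIF1AN and CITED2 the other 2 calls.

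Beyond the 10 genes, 58 further hypoxia targets had enough reads. Of these 9 fell, 3 rose and 46 did not pass (median log2 fold change -0.14, beside 0.0072 for all genes), where 7.39% of all genes were called lower and 6.46% higher. Glycolytic targets made up 21 of them, with 5 lower and 1 higher and a median of -0.21. SLC2A1, the glucose transporter gene, fell to 52.8% of control (log2 fold change -0.92, SE 0.0902), and TPI1, HK2, LDHA and SLC16A3 fell by 0.70, 0.36, 0.33 and 0.42 on the log2 scale, whereas PFKL rose by 0.31. These glycolysis genes were known to differ from an earlier account of these data and are not independent evidence of a direction.

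Among the other 37 targets outside glycolysis, 4 fell, 2 rose and 31 did not pass, with a median of -0.056; these 6 of 37 are close to the 13.8% called among all genes. Over all 42 tested targets of that kind, members included, the median was -0.041, and 0.026 with library totals. Over all 63 tested targets it was -0.13, and -0.059 with library totals. The median of all genes moved as well, from 0.0072 in the main fit to 0.0759 with library totals. DDIT4, which encodes an inhibitor of mTORC1 signalling, fell from 24.5 ± 2.64 to 14.8 ± 0.672 CPM (SD, n = 3 each), a log2 change of -0.73 (SE 0.117) with an edgeR adjusted p of 0.00489. AK4, a mitochondrial adenylate kinase gene, fell by 0.52 (SE 0.127), JMJD6, an oxygenase gene, by 0.44 (SE 0.102) and the transcription factor gene KLF6 by 0.34 (SE 0.0755), all on the log2 scale. KDM4B, a histone demethylase gene, rose by 0.38 (SE 0.0952). PPFIA4, a liprin gene, rose by 1.52 (SE 0.357) from 0.461 ± 0.224 to 1.36 ± 0.0702 CPM (SD, n = 3 each), where controls held 3 to 10 reads and knockdown libraries 18 to 21. Of the 12 calls among the 58 targets, SLC2A1, TPI1 and DDIT4 alone lasted when control replicate 2 or any knockdown library was left out. The other 9 then had adjusted p-values of 0.0583 to 0.146 by edgeR. AK4 was also lost with library totals (adjusted p = 0.0527). Without control replicate 1, calls among all 63 tested targets, VEGFA included, numbered 9 higher and 15 lower, and without control replicate 3 they numbered 3 and 14, in fits that called 29.04% and 23.7% of all genes.

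**Figure D5:**
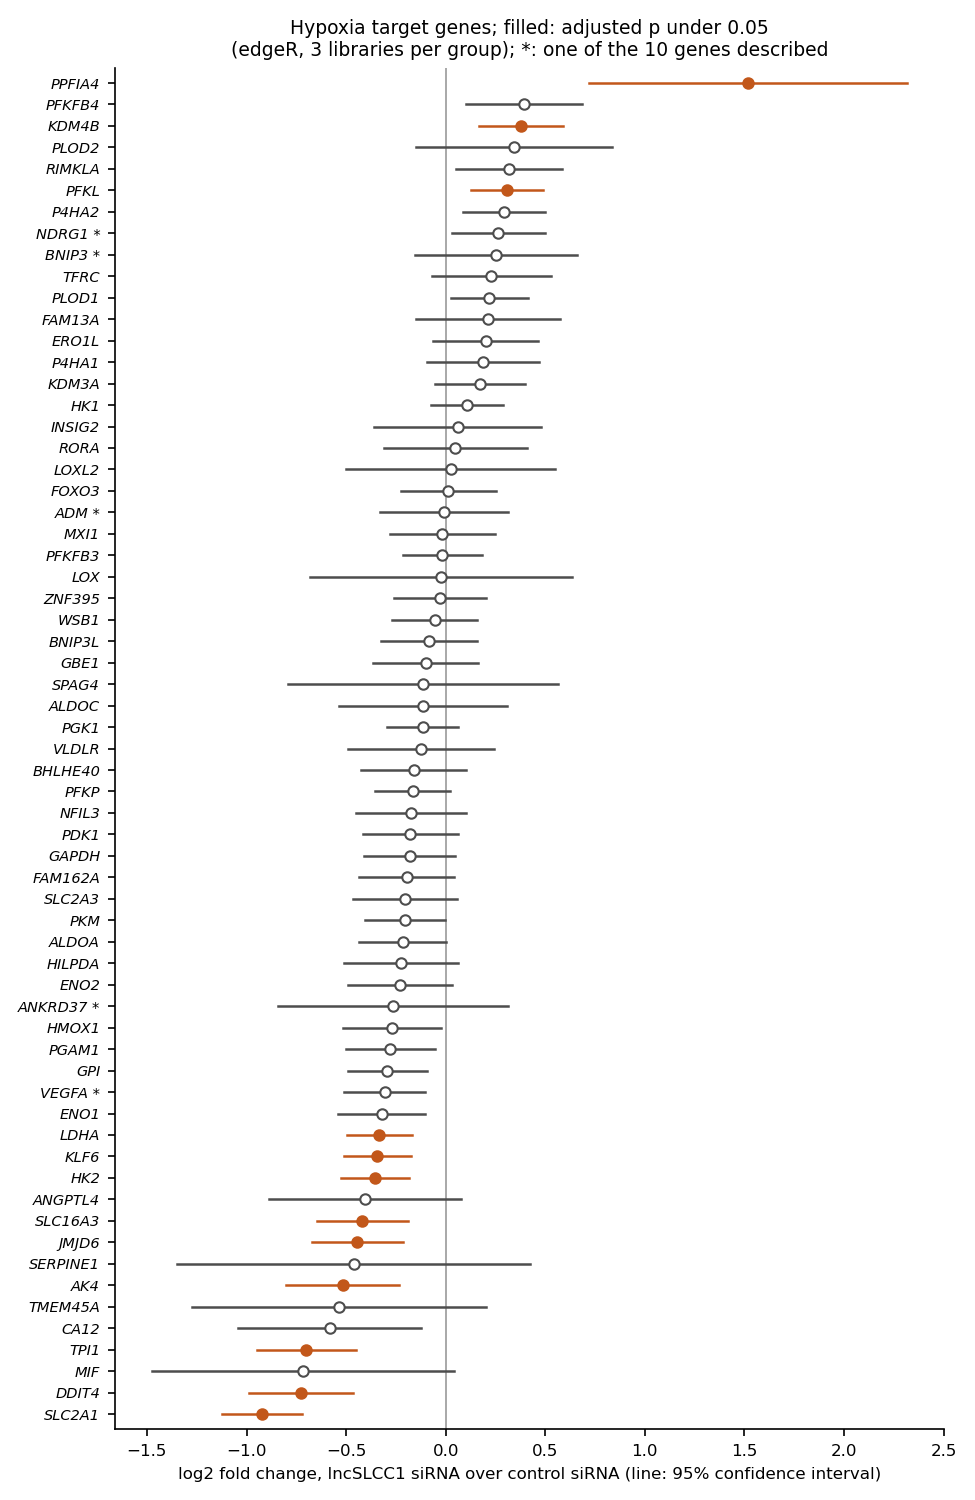
Log2 fold changes with 95% confidence intervals (horizontal axis) of the 63 tested hypoxia targets, filled where the adjusted p is under 0.05. SLC2A1 (-0.92) and DDIT4 (-0.73) are at the low end and PPFIA4 (1.52) at the high end, while VEGFA, ANKRD37, ADM, BNIP3 and NDRG1 are open circles on either side of 0.

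A published core signature of tumour hypoxia, which includes VEGFA, ADM and NDRG1, had 5 lower and 0 higher genes of 15 tested (median log2 fold change -0.31, beside 0.0072 for all genes, of which 7.39% were called lower). It shares 6 genes with the glycolytic targets (SLC2A1, ALDOA, TPI1, PGAM1, ENO1 and LDHA), 3 of its 5 calls among them. Its genes VEGFA, ADM, NDRG1, P4HA1 and MIF, none of them called, are also among the other hypoxia targets. To that extent the signature is not independent of the target lists. The 2 calls not yet named, picked out after their values were seen, were the tubulin gene TUBB6, which fell from 211 ± 20.5 to 140.2 ± 4.40 CPM (log2 change -0.59 with SE 0.0879, edgeR adjusted p = 0.0035), and MRPS17, a mitochondrial ribosomal protein gene, which fell by 0.50 on the log2 scale (SE 0.128, edgeR adjusted p = 0.031), with means of 43.7 ± 7.76 and 30.8 ± 0.476 CPM (SD, n = 3 each). MRPS17 was lost when control replicate 2 (adjusted p = 0.0892) or knockdown replicate 1, 2 or 3 (0.115, 0.117 and 0.12) was left out, whereas TUBB6 was not.

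Neighbours that overlap the 10 genes were looked up by whole gene span and not by exon. In GENCODE 29 the gene models of CA9, ANKRD37 and EGLN3 overlap those of ARHGEF39, UFSP2 and SPTSSA. These neighbours had 272 to 428, 346 to 456 and 255 to 421 reads per library, in that order. ARHGEF39 and UFSP2 lie on the opposite strand, where counting by strand could separate the reads. SPTSSA lies on the same strand as EGLN3, where strand would not separate reads in any shared exon. Whether counting used strand is not given in the sources used here, and whether reads fell in shared exons was not tested. The antisense genes HIF1A-AS1 and HIF1A-AS2 had 0 to 4 reads per library, and the listed pseudogenes of HIF1A, EGLN1 and BNIP3 had 0 or 1.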

How the data were processed

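For each of 6 libraries the authors deposited raw counts of reads by gene symbol. TopHat2 2.0.11 and HTSeq with builds hg19 and GRCh37 are named in the submitters' processing notes; the sources used here give neither the annotation nor the strand setting. HTSeq summary lines (5.42% to 7.58% of counted reads without a feature, 8.83% to 10.1% ambiguous, 12.8% to 13.8% not unique) were left out. Groups came from the sample titles. The main test was edgeR 4.0.16 (R 4.3.3) quasi-likelihood, with TMM, the default expression filter and no covariate, adjusted over 15242 genes. CPM used the same library sizes, and a standard error is the size of the log2 fold change divided by the square root of F. The biological coefficient of variation was 10.9%. The procedure was tested on simulated counts. Alternatives used DESeq2 1.42.0, limma-voom 3.58.1, other scalings, filters and thresholds, the replicate number as a block, GC content and length offsets (GENCODE 29 transcripts, matched for 89.3% of tested genes) and each library left out.

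Members and lists were chosen by role with earlier results of these data known. Named were the 10 members, and relatives, receptors and partners. Up to 6 further genes with the smallest p were named from each of 3 lists (HIF control, glycolytic and other targets). KDR, the adrenomedullin receptor genes, CUL2, RBX1, EP300, CREBBP, TUBB6, MRPS17, COL1A1, PDGFRB and VIL1 were added after their values were seen. Genes like HIF1A were ranked by profile distance, passing over pseudogenes and clone-named genes. No libraries of a group agreed within sampling noise: the chi-square statistic per gene was 1.87 to 1.99 between lncSLCC1 siRNA libraries and 5.97 to 31.2 between controls. Of the leukocyte markers, those with reads are reported; the rest of that list is not reported here.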

Additional observations from a re-analysis of the deposited data

How the results depend on the processing

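The signs of 7 of the 9 tested members held under the 14 alternatives each; of 126 values, 103 kept sign and side of the threshold, 16 newly passed and 7 turned sign. The log2 fold change of EGLN1 became -0.029 without control replicate 1, in a range of -0.029 to 0.171 over single libraries left out. That of ADM became 0.065 with library totals, 0.011 by limma-voom, 0.00062 with the replicate block, 0.097 with GC content and length offsets, 0.139 when control replicate 1 and 0.014 when lncSLCC1 siRNA replicate 3 was left out, in a range of -0.127 to 0.139. With library totals the median of all genes was itself 0.0759, beside 0.0072 in the main fit. The cause of the sign changes was not tested.

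Counts are given as higher, then lower. Members called numbered 1 and 0 with library totals, and 0 and 1 with DESeq2 size factors, without a low-count filter and by DESeq2. With the GC content and length offsets they numbered 2 and 3, in a fit that called 30.15% of all genes. At an adjusted p under 0.1 they numbered 0 and 2. Over single libraries left out they ranged from 0 to 1 and from 0 to 3. HIF control genes numbered 1 and 2 with library totals, 1 and 6 without a filter, 0 and 5 by DESeq2, 2 and 8 with the offsets, 0 and 1 at an adjusted p under 0.01 and 1 and 6 under 0.1, with ranges of 0 to 2 and 1 to 8. Hypoxia targets, members included, numbered 8 and 8 with library totals, 4 and 16 without a filter, 7 and 17 with the offsets, 0 and 3 under 0.01 and 5 and 14 under 0.1, with ranges of 0 to 9 and 3 to 15. All genes numbered 1441 and 821 with library totals (14.84% of those tested) and 995 and 1150 with DESeq2 size factors (14.07%). They numbered 1600 and 1672 without a filter (10.9% of 30025), 816 and 1370 by DESeq2 (16.6%) and 2154 and 2441 with the offsets (30.15%). Under 0.01 they numbered 251 and 327, and under 0.1 they numbered 1691 and 1834, of 15242. Over single libraries left out they ranged from 213 to 2112 and from 244 to 2431 (2.93% to 29.04%). The highest counts over libraries left out came without control replicate 1, except that higher HIF control genes were most numerous without control replicate 3.

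Deviations of libraries with the same replicate number correlated at 0.232, -0.0194 and 0.00985, so the numbers were not taken to pair the libraries, and not every library correlated best with its own number. The replicate block gave 993 and 1059 calls over all genes and 0 and 0 among members. Genes of few reads, ANKRD37 and BNIP3 among the members, and 3 libraries a group limit the size of change that could be detected.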
